A study of Mus musculus with 9 samples.

Results

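The 8 genes described here encode S100 calcium-binding proteins and were chosen by name from the 23234 gene symbols of each file: S100a1, S100a4, S100a6, S100a8, S100a9, S100a10, S100a11 and S100a13. Their RNA was measured by RNA sequencing in 9 libraries of CD11b+ monocytes, each made from about 100000 sorted cells of peripheral blood, from C57BL/6 mice at 8 months of age. All mice carried Yaa, a Y chromosome with a duplicated piece of the X that includes Tlr7. There were 4 Gr-1+ libraries, labelled null (Fcgr2-/-, 2 libraries), CEBPaCre (Fcgr2 fl/fl with CEBPaCre) and CD19Cre (Fcgr2 fl/fl with CD19Cre), and 5 Gr-1- libraries, 1 each labelled null, CEBPaCre, CD11cCre (Fcgr2 fl/fl with CD11cCre), CD19Cre and floxed (Fcgr2 fl/fl with no Cre). Fcgr2, listed as Fcgr2b, encodes CD32, the inhibitory receptor for IgG. CEBPaCre acts in myeloid cells, CD19Cre in B cells, and CD11cCre in dendritic cells and part of the monocytes. The number of animals behind a library is not given in the sources used here, so the p-values measure the spread between libraries only, and that spread may be technical. Only null Gr-1+ has 2 libraries, so unless genotype is fitted the spread within a subset also includes differences between genotypes.

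S100 proteins are small, mostly dimeric proteins that bind calcium through EF-hand loops and then expose a surface that docks on partner proteins. S100a8 and S100a9 form calprotectin, a zinc- and calcium-binding heterodimer abundant in the cytosol of neutrophils and classical monocytes, which is released in inflammation and signals through Tlr4 and Ager (RAGE). The other members act mainly inside the cell, on annexins, myosin and the cytoskeleton. In mouse blood, Gr-1+ monocytes are the classical, Ly6C-high cells and Gr-1- monocytes the patrolling cells that depend on Nr4a1.

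Fcgr2b did not follow the labels. It stood at 200.7 and 105.9 FPKM in the Gr-1+ libraries labelled null, 148.4 in CEBPaCre Gr-1+ and 195.2 in CD19Cre Gr-1+. In Gr-1- it stood at 144.8 FPKM in the library labelled null, 83.05 in CEBPaCre, 92.88 in CD11cCre, 105.4 in CD19Cre and 74.95 in floxed. A symbol-level value does not show which exons the reads came from, and genotypes below are the labels. FPKM scales fragments by transcript length and by mapped fragments, and gives no depth in reads. Between 9783 and 10258 genes per library reached 1 FPKM. Symbols listed at 0 numbered from 5123 in null Gr-1- to 10140 in CD19Cre Gr-1+. Both CD19Cre libraries stood apart from the other 7 in the share of summed FPKM on ribosomal protein genes (83 symbols), with 1.99% in CD19Cre Gr-1+ and 2.28% in CD19Cre Gr-1- against 3.68% to 7.74% elsewhere. Csf1r, the receptor that marks the monocyte lineage, was at 389.8 to 681.5 FPKM in Gr-1+ against 468.4 to 1191 FPKM in Gr-1-. Its level does not show how pure the sorted cells were, and markers of other cells are given below.

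All 8 genes lie on chromosome 3. In annotation order, S100a1 and S100a13 are head-to-head neighbours, S100a4 and S100a6 lie next, S100a8 and S100a9 are adjacent on opposite strands, and S100a11 and S100a10 lie farther on. The sequences below are the promoter windows of the calprotectin genes, which moved together between the subsets, and of S100a4, which did not pass the test. They run 5′ to 3′ along the strand of the gene, from 250 bases before to 50 after the annotated first base (RefSeq, GRCm38.p6), with matches to a C/EBP motif (TTNNGNAA) and to a TATA box (TATAAA), searched on both strands, in capitals.
S100a8, chr3:90668821-90669120 (+): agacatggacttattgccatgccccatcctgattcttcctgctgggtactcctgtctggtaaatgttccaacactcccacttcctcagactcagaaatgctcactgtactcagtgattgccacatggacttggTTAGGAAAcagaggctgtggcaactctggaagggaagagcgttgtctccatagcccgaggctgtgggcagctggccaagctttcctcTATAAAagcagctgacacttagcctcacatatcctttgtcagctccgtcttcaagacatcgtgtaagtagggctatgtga
S100a9, chr3:90695672-90695971 (-): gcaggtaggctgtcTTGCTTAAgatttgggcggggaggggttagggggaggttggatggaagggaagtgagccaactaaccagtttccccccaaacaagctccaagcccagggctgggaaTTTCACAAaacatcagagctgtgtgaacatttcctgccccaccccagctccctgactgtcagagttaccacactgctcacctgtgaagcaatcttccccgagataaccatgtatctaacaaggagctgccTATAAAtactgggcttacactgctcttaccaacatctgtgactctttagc
S100a4, chr3:90603520-90603819 (+): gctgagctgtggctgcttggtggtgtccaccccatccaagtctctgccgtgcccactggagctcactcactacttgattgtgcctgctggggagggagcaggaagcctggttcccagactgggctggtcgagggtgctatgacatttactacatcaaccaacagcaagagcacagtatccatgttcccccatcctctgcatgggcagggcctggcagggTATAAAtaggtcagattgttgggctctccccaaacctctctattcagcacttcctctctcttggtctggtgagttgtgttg

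The S100a8 window held 1 C/EBP match, from base -117 to -110, and a TATA match from -30 to -25, counting the annotated first base as 0. The S100a9 window held 2 C/EBP matches, starting at -236 and -130, and a TATA match that began at the annotated first base itself. S100a4 had a TATA match from -31 to -26 and no C/EBP match. Windows were found for 7 of the 8 members (not for S100a10), and those of S100a1, S100a6, S100a11 and S100a13 held neither motif. Among all 32851 windows of the same length, 40.68% held the C/EBP motif and 13.62% the TATA motif. Matches to a PU.1 motif (GAGGAA, in 28.28% of all windows) were found in S100a8 (2), S100a4 (1) and S100a11 (1), and those to an Sp1 motif (GGGCGG, in 35.66%) in S100a11 (3) and S100a9 (1). The AP-1 motif TGANTCA, in 7.81% of all windows, was found in S100a11 alone of the 7, with 2 matches. No match overlapped another. A match describes letters in the window and not a bound site.

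Between the subsets, 6 of the 8 members rose in Gr-1+ and none fell, by limma on log2(FPKM + 1) with Benjamini-Hochberg adjustment over 10436 tested genes at 0.05. Over all tested genes 8.84% were called higher in Gr-1+ and 5.95% lower, and the median log2 difference was 0.09. Every member passed the filter on low values, an average of 1 FPKM or more. With each library scaled to the same sum the calls split into 914 higher and 1067 lower, against 923 and 621 as deposited. That scaling shifted the log2 differences by a median of -0.15 and left the same 6 members called. With genotype as a block, 2712 genes and 7 members were called, S100a13 being the added member. The 2 members that were not called were S100a4 and S100a13. Without both CD19Cre libraries all 8 members were called. For 5 members (S100a1, S100a6, S100a8, S100a9 and S100a10) every Gr-1+ library was above every Gr-1- library, which held for 10.2% of all tested genes.

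**Figure D1:**
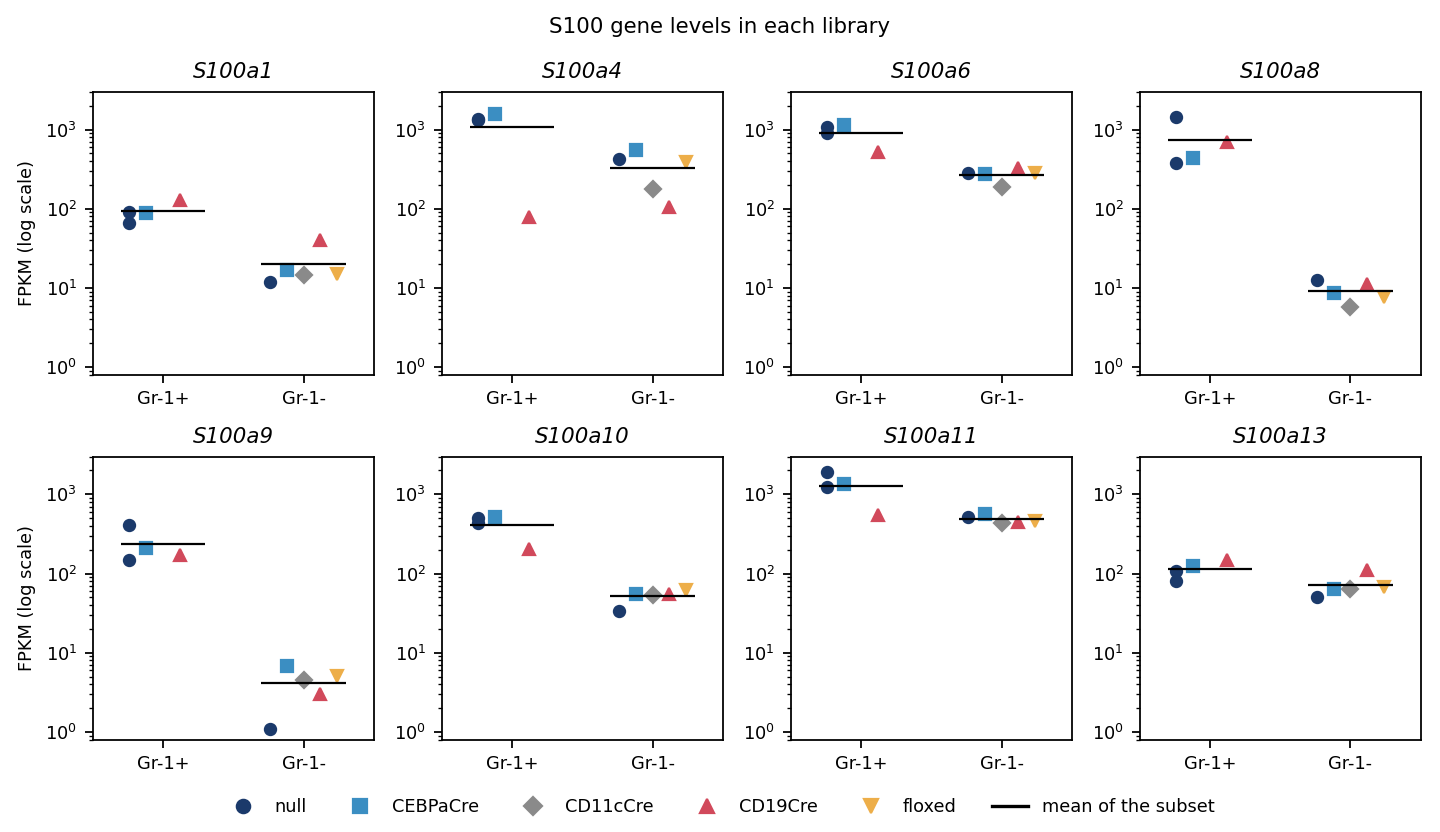
FPKM of the 8 S100 genes in each library (vertical axis, log scale), with Gr-1+ libraries on the left and Gr-1- libraries on the right of each panel, coloured by genotype label, and the mean of each subset as a line. S100a8 and S100a9 separate most, with means of 731.5 and 235.6 FPKM in Gr-1+ against 9.174 and 4.092 FPKM in Gr-1-, and the CD19Cre Gr-1+ library lies at 77.86 FPKM of S100a4, below every other library.

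S100a8, the calprotectin subunit that is unstable without its partner, stood at 1423 and 379.5 FPKM in the Gr-1+ libraries labelled null, 432.5 in CEBPaCre and 691.2 in CD19Cre. In Gr-1- it stood at 12.44 FPKM in null, 8.65 in CEBPaCre, 5.706 in CD11cCre, 11.35 in CD19Cre and 7.732 in floxed. The lowest Gr-1+ library was therefore far above the highest Gr-1- library, although the 4 Gr-1+ libraries themselves spanned 379.5 to 1423 FPKM. The means were 731.5 ± 480.5 FPKM in Gr-1+ (SD, n = 4) against 9.17 ± 2.73 FPKM in Gr-1- (SD, n = 5). On the log2(FPKM + 1) scale S100a8 was 6.01 ± 0.37 (SE) higher in Gr-1+, a 64.3-fold ratio of geometric means (limma adjusted p = 6.72e-06), in position 5 of all 10436 differences from the top. In bulk RNA, fewer cells expressing a gene and less RNA per cell cannot be told apart.

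S100a9, the subunit that carries the metal-binding tail of calprotectin, stood at 413.5 and 148.1 FPKM in the Gr-1+ libraries labelled null, 211.4 in CEBPaCre and 169.5 in CD19Cre. Its Gr-1- values were 1.075 FPKM in null, 6.754 in CEBPaCre, 4.537 in CD11cCre, 2.972 in CD19Cre and 5.123 in floxed. The groups did not overlap, and null Gr-1- was the lowest library. The mean was 235.6 ± 121.5 FPKM in Gr-1+ (SD, n = 4) against 4.09 ± 2.16 FPKM in Gr-1- (SD, n = 5), with a log2 difference of 5.55 ± 0.40, or 46.8-fold (limma adjusted p = 1.18e-05). S100a9 held position 9 of all differences.

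Although S100a8 and S100a9 work as a complex, their RNA levels were not in a fixed ratio. S100a8 exceeded S100a9 in every library. The ratio of FPKM was 3.44 and 2.56 in the Gr-1+ libraries labelled null, 2.05 in CEBPaCre Gr-1+ and 4.08 in CD19Cre Gr-1+. In Gr-1- it was 11.6 in null, 1.28 in CEBPaCre, 1.26 in CD11cCre, 3.82 in CD19Cre and 1.51 in floxed, a wider range than in Gr-1+, at levels of a few FPKM. Together both genes made up 26.8% and 11.3% of the summed FPKM of the 8 members in the null Gr-1+ libraries, 11.8% in CEBPaCre Gr-1+ and 34.6% in CD19Cre Gr-1+, against 1.0% to 1.3% in the Gr-1- libraries.

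Neutrophil markers were also higher in Gr-1+. Of 19 listed markers, Ly6g was not analysed here, 15 were tested, and 11 were called higher and none lower. Their summed level was 7259 and 3662 FPKM in the null Gr-1+ libraries, 957.4 in CEBPaCre Gr-1+ and 2511 in CD19Cre Gr-1+, against 103.4 to 287.5 FPKM in the Gr-1- libraries. In Gr-1+ most of the mean sum was Chi3l3 (also expressed by monocytes), at 379 to 6304 FPKM in Gr-1+ against 10.76 to 222.6 FPKM in Gr-1-. Camp, a neutrophil granule gene, was at 6.106 to 38.88 FPKM in Gr-1+ against listed at 0 in all 5 Gr-1- libraries. Mmp8 (66.4-fold), Cd177 (20.3-fold) and Mmp9 (2.655-fold) were among the markers called higher. The 4 tested markers not called were Cxcr2, Csf3r, Retnlg and Ceacam10. Cxcr2 averaged 6.20 ± 1.53 FPKM in Gr-1+ (SD, n = 4) against 7.80 ± 5.11 FPKM in Gr-1- (SD, n = 5). The part of neutrophil RNA in the S100a8 and S100a9 values was not tested. The null Gr-1+ replicate 1 library was highest in S100a8, S100a9 and the summed level of the neutrophil markers. Within Gr-1+, CEBPaCre had the lowest sum and the lowest Prtn3 (27.1 FPKM) and Lcn2 (58.49 FPKM). The null replicate 2 library was the lowest of Gr-1+ in S100a8 and S100a9.

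S100a10, known as p11, does not bind calcium and acts as the partner of annexin A2 at the plasma membrane. Its level was 440 and 504.5 FPKM in the Gr-1+ libraries labelled null, 514.3 in CEBPaCre and 202.6 in CD19Cre, against 34, 55.4, 52.97, 54.89 and 62.29 FPKM in the Gr-1- libraries labelled null, CEBPaCre, CD11cCre, CD19Cre and floxed. The subsets were separate, with CD19Cre the lowest of Gr-1+ and null the lowest of Gr-1-. The log2 difference was 2.91 ± 0.30, or 7.53-fold (limma adjusted p = 8.64e-05). Among the members only S100a8 and S100a9 had larger fitted differences.

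S100a6 (calcyclin), which binds annexins and the ubiquitin ligase adaptor Cacybp, stood at 1077 and 906.1 FPKM in the null Gr-1+ libraries, 1138 in CEBPaCre and 523.5 in CD19Cre. The Gr-1- values were 281.8 FPKM in null, 271.1 in CEBPaCre, 185.8 in CD11cCre, 326.8 in CD19Cre and 284.1 in floxed. Here too the subsets did not overlap. The difference was 1.71 ± 0.28 on the log2 scale, or 3.28-fold (limma adjusted p = 0.00166).

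S100a11, a partner of annexin A1 and the member with the highest mean in both subsets, stood at 1923 and 1248 FPKM in the null Gr-1+ libraries, 1365 in CEBPaCre and 546.5 in CD19Cre. In Gr-1- it stood at 517.8 FPKM in null, 564.9 in CEBPaCre, 429.6 in CD11cCre, 446.7 in CD19Cre and 454.1 in floxed. The CD19Cre Gr-1+ library lay within the Gr-1- range and the other 3 above it. S100a11 was 1.27 ± 0.33 higher in Gr-1+ on the log2 scale, or 2.41-fold (limma adjusted p = 0.0229), and was the only called member whose call depended on a single library. Its adjusted p was 0.0682 and 0.0592 without null Gr-1+ replicate 1 and replicate 2, 0.071 without CEBPaCre Gr-1+ and 0.0549 without CD11cCre Gr-1-. With no filter on the mean it was 0.0585. A pseudogene of S100a11 lies on another chromosome, so reads may be split between the copies.

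S100a4 (metastasin), which binds the heavy chain of non-muscle myosin and is linked to cell motility, had the largest standard error of the 8 members in the subset fit. It stood at 1374 and 1338 FPKM in the null Gr-1+ libraries and 1573 in CEBPaCre, but at 77.86 FPKM in CD19Cre Gr-1+. The Gr-1- values were 424.3 FPKM in null, 553.1 in CEBPaCre, 175.1 in CD11cCre, 105 in CD19Cre and 394.6 in floxed. The CD19Cre library was the lowest of its subset on both sides, and the CD19Cre Gr-1+ library was below every Gr-1- library. The ratio of S100a6 to S100a4, which lie in the same stretch of the chromosome, was 6.72 in CD19Cre Gr-1+ and 3.11 in CD19Cre Gr-1- against 0.49 to 1.06 in the other 7 libraries. The means, 1091 ± 683 FPKM in Gr-1+ (SD, n = 4) against 330.4 ± 185.4 FPKM in Gr-1- (SD, n = 5), did not differ by the test. The log2 difference was 1.30 ± 0.85, with a 95% interval of -0.57 to 3.17 (limma adjusted p = 0.373). Without the CD19Cre Gr-1+ library it was 2.35 (adjusted p = 0.00952), and without both CD19Cre libraries 1.99 (adjusted p = 0.00552). In the GRCm38 annotation S100a4 overlaps Gm42674 on the same strand. Whether the mm9 annotation behind the FPKM holds Gm42674 is not given, and how the S100a4 reads were assigned was not tested.

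S100a1, best known for its role in calcium handling of the heart muscle, stood at 92.21 and 65.53 FPKM in the null Gr-1+ libraries, 87.39 in CEBPaCre and 128.7 in CD19Cre. In Gr-1- it stood at 11.89 FPKM in null, 16.97 in CEBPaCre, 14.63 in CD11cCre, 40.35 in CD19Cre and 15.13 in floxed. The subsets were separate, and CD19Cre was the highest library in each. The log2 difference was 2.28 ± 0.33, or 4.86-fold (limma adjusted p = 9e-04).

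S100a13, which takes part in the release of Fgf1 and Il1a without a signal peptide, was the member that differed least. It stood at 107.6 and 79.99 FPKM in the null Gr-1+ libraries, 125.3 in CEBPaCre and 150 in CD19Cre, and at 50.79 FPKM in null Gr-1-, 63.6 in CEBPaCre, 64.73 in CD11cCre, 110.7 in CD19Cre and 67.57 in floxed. As for its neighbour S100a1, CD19Cre was the highest library in each subset, but here the subsets overlapped. The log2 difference was 0.70 ± 0.26 (limma adjusted p = 0.108). It was called without both CD19Cre libraries (0.73, adjusted p = 0.0397) and without CD19Cre Gr-1- alone (0.87, adjusted p = 0.0294). It was also called with genotype as a block (0.76, adjusted p = 0.0203) and with library weights (0.72, adjusted p = 0.0256). S100a1 and S100a13 start close together on opposite strands and do not overlap in the GRCm38 annotation. The cDNA kit is not stated to keep the strand, and the annotation behind the FPKM is not given.

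The difference of S100a8 and S100a9 was set against that of each other member by fitting the log2 difference between the genes in each library. The Gr-1+ to Gr-1- difference of S100a9 was 0.46 ± 0.57 smaller than that of S100a8 (a fitted value of -0.46, 95% interval -1.81 to 0.89), so a gap between both subunits was not detected (limma without moderation, adjusted p = 0.448). With estimated library weights it was called (-0.78, adjusted p = 0.0449). With S100a9 subtracted instead, library weights called S100a8 higher (limma without moderation, adjusted p = 0.00615). The weighted p thus differed with the gene subtracted. All 6 other members had a smaller difference than S100a8. The fitted values were -3.09 ± 0.62 for S100a10 (limma, adjusted p = 0.00158), -3.73 ± 0.47 for S100a1 (0.000109), -4.29 ± 0.45 for S100a6 (3.57e-05), -4.71 ± 1.16 for S100a4 (0.00493), -4.74 ± 0.48 for S100a11 (2.7e-05) and -5.31 ± 0.46 for S100a13 (1.42e-05). Against S100a9 the same 6 members were called, from -2.64 ± 0.43 for S100a10 to -4.85 ± 0.51 for S100a13. Because S100a8 and S100a9 stand near the top of all genes, 99.5% of tested genes were called below S100a8 and 99.4% below S100a9, and the 6 of 6 members are at that background.

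**Figure D2:**
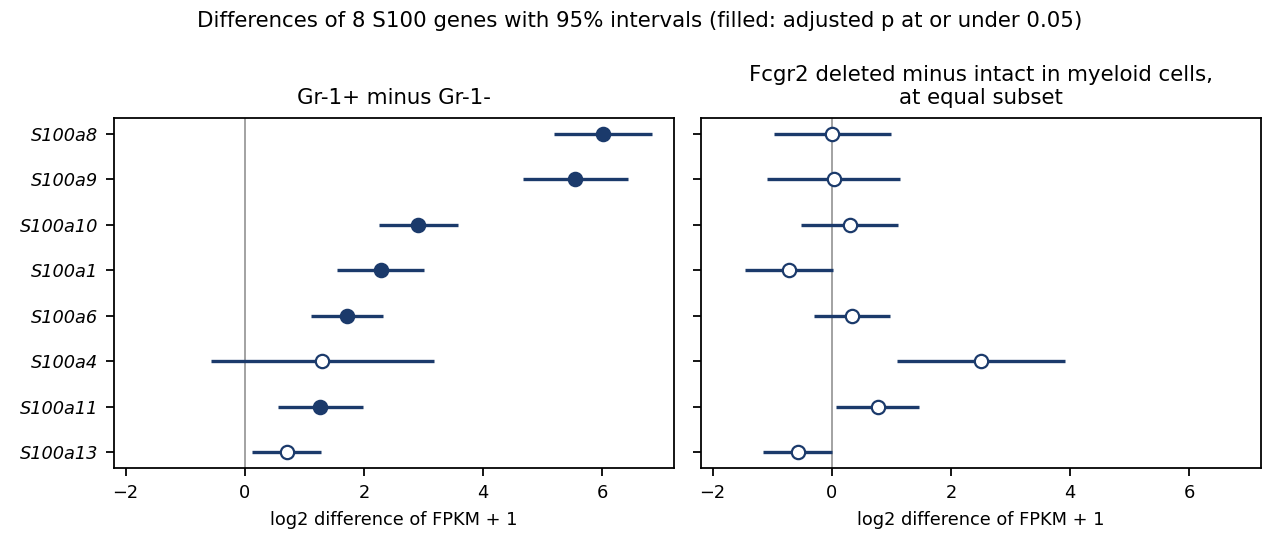
Log2 differences of FPKM + 1 for the 8 S100 genes, with 95% intervals, between Gr-1+ and Gr-1- libraries (left) and between libraries whose label removes Fcgr2 in myeloid cells and those whose label does not (right). Filled points passed an adjusted p of 0.05, which 6 members did on the left and none on the right, where S100a8 (0.005) and S100a9 (0.03) lie at 0 and S100a4 at 2.50.

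Within each genotype label that has both subsets, the Gr-1+ library can be set against its Gr-1- library. These are single libraries with no replicate check, and both null Gr-1+ libraries are set against the same null Gr-1- library. S100a8 was 106-fold and 28.3-fold higher in null Gr-1+ replicates 1 and 2, 44.9-fold in CEBPaCre and 56.1-fold in CD19Cre. S100a9 was 199.8-fold and 71.9-fold higher in the null comparisons, 27.4-fold in CEBPaCre and 42.9-fold in CD19Cre. The calprotectin genes thus differed as widely in the CD19Cre comparison as in the others. The remaining members did not. In CD19Cre, S100a10 was 3.64-fold higher against 9.14-fold to 14.4-fold in the other 3 comparisons, S100a1 3.14-fold against 4.92-fold to 7.23-fold, and S100a6 1.60-fold against 3.21-fold to 4.19-fold. S100a11 was 1.22-fold higher in CD19Cre against 2.41-fold to 3.71-fold elsewhere, and S100a13 1.35-fold against 1.56-fold to 2.097-fold. S100a4 was 2.84-fold to 3.23-fold higher in Gr-1+ in the null and CEBPaCre comparisons, and in CD19Cre its ratio was 0.744, the only value below 1 among the 32 ratios.

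**Figure D3:**
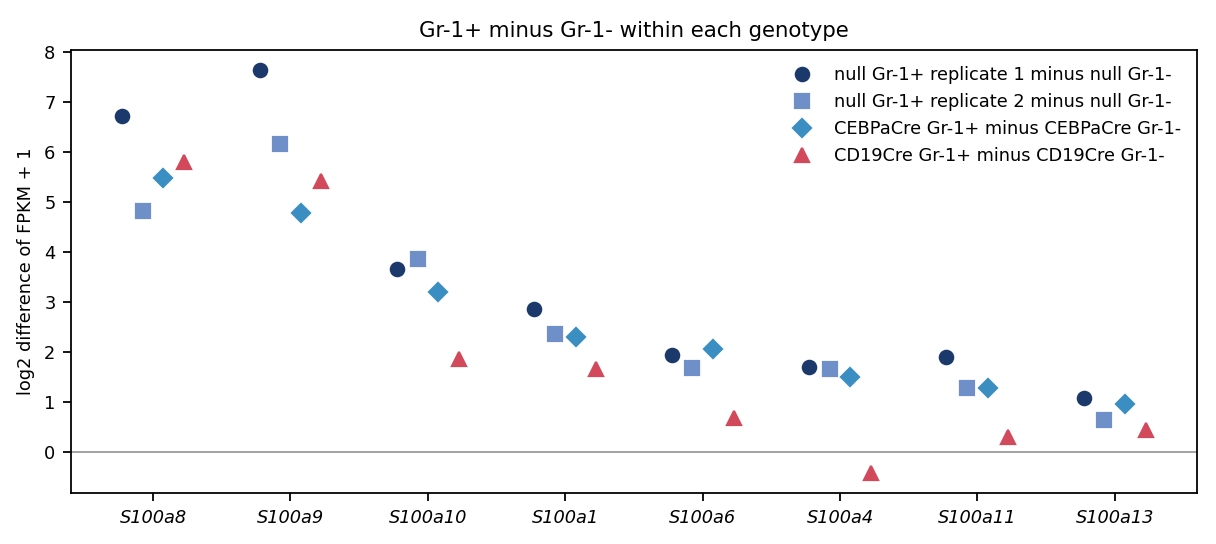
Log2 difference of FPKM + 1 between the Gr-1+ and the Gr-1- library of the same genotype label (vertical axis) for each S100 gene; each point is 1 Gr-1+ library. For S100a8 and S100a9 the CD19Cre point (5.81 and 5.42) lies among the others, and for the other 6 members it is the lowest, down to -0.43 for S100a4.

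In Gr-1+ the mean levels, which FPKM expresses per transcript length, ran in the order S100a11 (1271 FPKM), S100a4 (1091), S100a6 (911.2), S100a8 (731.5), S100a10 (415.3), S100a9 (235.6), S100a13 (115.7) and S100a1 (93.47). The ranges of all neighbours in that order overlapped. In Gr-1- the order was S100a11 (482.6 FPKM), S100a4 (330.4), S100a6 (269.9), S100a13 (71.48), S100a10 (51.91), S100a1 (19.79), S100a8 (9.17) and S100a9 (4.09). Of the neighbours there, only S100a6 and S100a13 had ranges that did not overlap. By mean, S100a8 and S100a9 were thus the lowest members in Gr-1- and in positions 4 and 6 in Gr-1+. S100a1 was above S100a8 in 4 of the 5 Gr-1- libraries, the exception being null. The 8 members together made up 0.457% to 1.258% of the summed FPKM in Gr-1+ libraries, with CD19Cre lowest, and 0.191% to 0.326% in Gr-1- libraries. Of 10 further rows whose symbol begins with S100, 9 (S100a2, S100a3, S100a5, S100a7a, S100a14, S100a16, S100b, S100g and S100z) reached at most 0.68 FPKM in any library and were not tested. The tenth row, S100pbp, encodes a protein that binds an S100 protein, and was not called (limma adjusted p = 0.978).

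By genotype, libraries whose label removes Fcgr2 in myeloid cells (null and CEBPaCre, 5 libraries) were compared with libraries whose label leaves it (CD19Cre and floxed, 3 libraries), with the subset as a covariate and CD11cCre left out. None of the 8 members was called by limma, nor was any of the 10429 tested genes (0% called), of which 1470 had an unadjusted p under 0.05, S100a4 and S100a11 among them. S100a8 and S100a9 gave differences of 0.005 ± 0.44 (95% interval -0.98 to 0.99) and 0.03 ± 0.49 (-1.08 to 1.15), intervals that leave room for about a doubling in either direction. Within Gr-1+, S100a8 was at 379.5 to 1423 FPKM in the 3 deleted libraries and at 691.2 FPKM in CD19Cre. Within Gr-1- it was at 8.65 and 12.44 FPKM in the deleted libraries and at 7.732 and 11.35 FPKM in the intact ones.

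S100a4 had the largest genotype difference of the family, 2.50 ± 0.63 higher in the libraries labelled deleted (limma adjusted p = 0.306, unadjusted p = 0.00304). Its mean was 1052 ± 524 FPKM in those (SD, n = 5) and 192.5 ± 175.5 FPKM in the intact ones (SD, n = 3). The Gr-1- libraries were at 424.3 and 553.1 FPKM for deleted against 105 and 394.6 FPKM for intact, so the floxed library lay close to the deleted ones. Without both CD19Cre libraries the difference was 0.30 (adjusted p = 0.751) and without CD19Cre Gr-1+ 1.25, whereas without the floxed library it was 3.24 (adjusted p = 0.00857). Without the floxed library, which leaves only CD19Cre as intact, 2551 genes were called, and S100a1 (-1.03, adjusted p = 0.0224) and S100a13 (-0.74, adjusted p = 0.048) were called lower in the deleted libraries. With all libraries S100a1 was at -0.72 ± 0.33 (adjusted p = 0.364) and S100a13 at -0.58 ± 0.26 (adjusted p = 0.36). S100a11 was at 0.77 ± 0.31 (adjusted p = 0.321), S100a6 at 0.34 ± 0.28 (adjusted p = 0.569) and S100a10 at 0.30 ± 0.36 (adjusted p = 0.691).

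The genotype difference was also compared between the subsets with an interaction term, for which 9 of 10429 genes were called (0.0863%) and no member. At an unadjusted p under 0.05 there were 339 genes, S100a4, S100a6, S100a10 and S100a11 among them. In Gr-1+ this rests on CD19Cre as the only intact library. S100a4 gave an interaction of 2.93 ± 0.85 on the log2 scale (limma adjusted p = 0.882), and was called without CD19Cre Gr-1- (3.88, adjusted p = 0.0347). S100a10 gave 1.68 ± 0.50, S100a11 1.18 ± 0.49 and S100a6 1.12 ± 0.44, each with an adjusted p of 0.882. S100a10 was at 440 to 514.3 FPKM in null and CEBPaCre Gr-1+ against 202.6 FPKM in CD19Cre Gr-1+, and at 34 and 55.4 FPKM in the deleted Gr-1- libraries against 54.89 and 62.29 FPKM in the intact ones.

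The share of summed FPKM on ribosomal protein genes was lowest in the CD19Cre libraries, as was S100a4. It was 7.74% and 5.60% in the null Gr-1+ libraries, 6.37% in CEBPaCre Gr-1+ and 1.99% in CD19Cre Gr-1+. In Gr-1- it was 5.22% in null, 4.70% in CEBPaCre, 3.68% in CD11cCre, 2.28% in CD19Cre and 5.81% in floxed. The 3 libraries with the lowest share were also the 3 lowest in S100a4, while S100a8 showed no such order, with 691.2 FPKM at a share of 1.99%. B cell markers (4 genes) summed to 68.44 FPKM in CD19Cre Gr-1+ and 112 FPKM in CD19Cre Gr-1-, the highest of each subset, against 8.503 to 18.02 FPKM in the other Gr-1+ and 29.59 to 78.63 FPKM in the other Gr-1- libraries. The part of either in the S100a4 values was not tested.

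**Figure D4:**
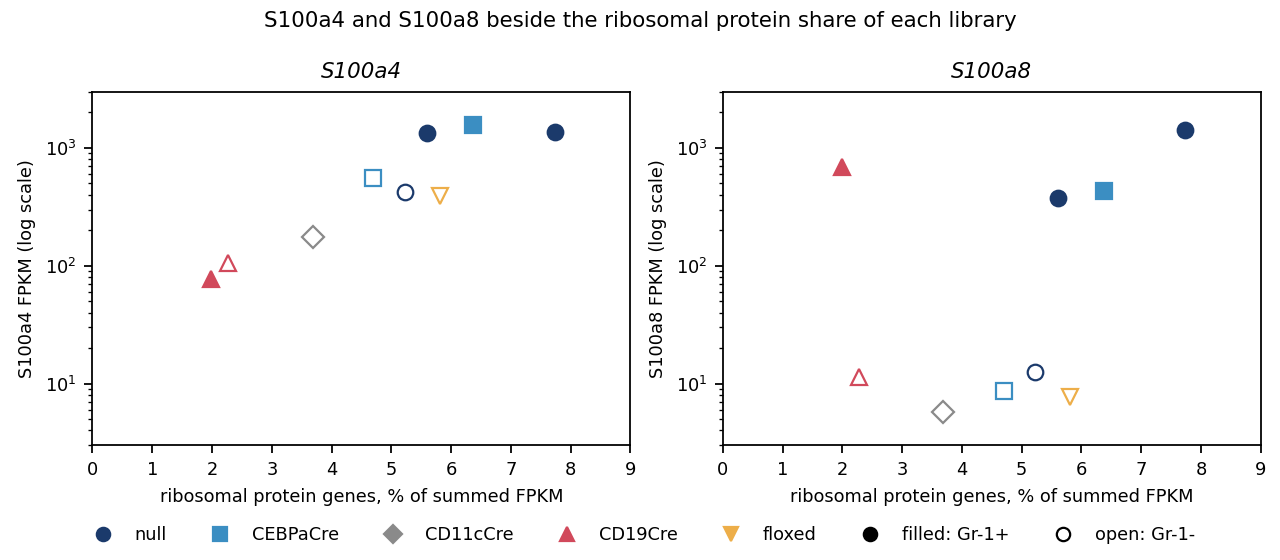
S100a4 (left) and S100a8 (right) FPKM in each library (vertical axis, log scale) against the share of summed FPKM on ribosomal protein genes (horizontal axis, %), with Gr-1+ libraries filled and Gr-1- libraries open. The CD19Cre libraries, at 1.99% and 2.28%, hold the lowest S100a4 values (77.86 and 105 FPKM), while CD19Cre Gr-1+ holds 691.2 FPKM of S100a8.

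Among 34 receptors and binding partners described for S100 proteins, 25 were tested, of which 6 were higher in Gr-1+, 1 was lower and 18 were not called, with a median log2 difference of 0.30 against 0.09 over all tested genes. Emb (embigin), a receptor described for S100a8 and S100a9, averaged 259.6 ± 23.1 FPKM in Gr-1+ (SD, n = 4) against 54.8 ± 13.6 FPKM in Gr-1- (SD, n = 5), a 4.78-fold difference (limma adjusted p = 7.46e-05). Cd33, a sialic acid-binding receptor described in human as a receptor of S100A9, was 4.49-fold higher in Gr-1+ (adjusted p = 0.00203). Anxa1, the partner of S100a11, rose 3.81-fold (adjusted p = 0.00168), to 622.3 ± 151.4 FPKM in Gr-1+ against 171.1 ± 77.2 FPKM in Gr-1-. The other higher genes were also annexins. Anxa2, the partner of S100a10, stood at 1047 ± 229 FPKM in Gr-1+ against 347.4 ± 115.7 FPKM in Gr-1- (3.09-fold, adjusted p = 0.00215), and Anxa5 (2.21-fold, adjusted p = 0.0478) and Anxa6 (2.096-fold, adjusted p = 0.0444) were called as well. Cd36, the fatty acid transporter that in human cells takes up arachidonic acid carried by calprotectin, was the gene called lower, at 5.40 ± 1.93 FPKM in Gr-1+ against 127.8 ± 27.5 FPKM in Gr-1- (log2 difference -4.35, adjusted p = 6.65e-06). Tlr4 averaged 14.6 ± 4.3 FPKM in Gr-1+ against 9.46 ± 2.95 FPKM in Gr-1- (adjusted p = 0.194), and Ager, at means of 1.22 and 0.681 FPKM in Gr-1+ against Gr-1-, was under the filter. Cacybp (adjusted p = 0.567) and Myh9 (adjusted p = 0.649) were not called. Anxa2, Anxa5, Anxa6, Tlr4, Ager, Cacybp and Myh9 were named after their values were seen.

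Of 18 regulators described for calprotectin or for monocyte subsets, 17 were tested, and 3 were higher, 3 lower and 11 not called, with a median log2 difference of -0.35 against 0.09 over all tested genes. Cebpe, a factor of granule gene expression, averaged 7.39 ± 5.02 FPKM in Gr-1+ against 0.593 ± 0.183 FPKM in Gr-1- (4.75-fold, limma adjusted p = 0.000494). Cebpd was 2.09-fold higher (adjusted p = 0.0127) and Hif1a 2.09-fold (adjusted p = 0.0364). Nr4a1, on which Gr-1- monocytes depend, was lower in Gr-1+, at 242.8 ± 103 FPKM against 765.3 ± 208.2 FPKM in Gr-1- (log2 difference -1.71, adjusted p = 0.00403). Nfkb1 (-0.89, adjusted p = 0.0125) and Cebpb (-0.94, adjusted p = 0.0253) were lower as well. Cebpb and Hif1a were named after their values were seen. No gene of either list was called by genotype.

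NK cell markers (6 genes) were all lower in Gr-1+, with summed levels of 1.117 to 1.761 FPKM in Gr-1+ libraries and 22.11 to 412.8 FPKM in Gr-1- libraries, and Ncr1 listed at 0 in all 4 Gr-1+ libraries. Of the other lists, B cell markers had 3 of 4 tested genes lower, dendritic cell markers 1 of 3 lower, platelet markers 1 of 5 higher and erythroid markers none of 3 called. The erythroid markers summed to 113.7 to 873.8 FPKM in Gr-1+ libraries and 194.7 to 1009 FPKM in Gr-1- libraries. T cell, eosinophil and basophil markers were under the filter. Among the monocyte markers, Ccr2 and Ly6c2 were higher in Gr-1+ and Nr4a1, Itgal, Ace, Treml4 and Spn lower. How far RNA of other cells lowered the members' values in Gr-1- was not tested.

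The genes most like S100a8 over the 9 libraries, by Pearson r of log2(FPKM + 1) among the 4886 genes that averaged 10 FPKM or more, were Prtn3 (r = 0.997, Spearman rho = 0.967), Lcn2 (0.992 and 0.933), Prdx4 (0.989 and 0.90), Slc25a4 (0.989 and 0.983) and Ms4a8a (0.987 and 0.917). Prtn3, a granule protease, was at 27.1 to 55.85 FPKM in Gr-1+ against 0 to 1.329 FPKM in Gr-1-, and both Prtn3 and Lcn2 are in the neutrophil list. The genes most like S100a4 were Sod1 (r = 0.985, rho = 0.933), Btf3 (0.984 and 0.983), Rpl23a (0.982 and 0.933), Rpl15 (0.981 and 0.983) and Kdelr1 (0.979 and 0.933). Rpl23a and Rpl15 encode ribosomal proteins, and Rpl23a was at 137.8 FPKM in CD19Cre Gr-1+ against 575.2 to 798.6 FPKM in the other Gr-1+ libraries. These likenesses describe 9 libraries that share subsets and genotypes, and carry no p.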

How the data were processed

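The deposited values are FPKM per gene symbol, which the authors made with TopHat2 2.0.8 and Cufflinks 2.1.1 on mm9, per the submitters' processing notes; annotation and settings are not given in the sources used here. Per the labels' protocols, RNA was taken with Trizol and cDNA made with a SMART-Seq v4 kit. No other scaling is stated, and read depth is unknown, so no counting interval is given. The 9 files hold 23234 symbols.

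Differences were fitted with limma 3.58.1 (R 4.3.3; lmFit, eBayes with trend) on log2(FPKM + 1), for genes that averaged 1 FPKM or more across all 9 libraries and were above 0 in 2 or more of those fitted, with Benjamini-Hochberg adjustment over all of them. Folds are ratios of geometric means of FPKM + 1, and the pseudocount understates the change of low genes. Fits relative to S100a8 or S100a9 used limma's unmoderated statistics, since every gene then shares the error of the subtracted gene. The fits between subsets and by genotype were tested on simulated data, and the interaction and the fits relative to S100a8 or S100a9 were not. Alternatives covered the pseudocount, filters, scalings, library weights, a genotype block and left-out libraries.

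The members and lists were chosen with earlier results of these data known. The text names all 8 members, up to 4 list genes with the smallest p, and the 5 genes most like S100a8 and S100a4, leaving out predicted genes and small RNAs. Older symbols were matched (Sfpi1 for Spi1). Promoters and gene order come from GRCm38 tables, and no coordinate was converted. Some results for listed marker genes are not reported here.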

Additional observations from a re-analysis of the deposited data

Results flagged for a closer look

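In S100a4 the CD19Cre Gr-1+ library (77.86 FPKM) lay far below the other 3 Gr-1+ libraries (1338 to 1573 FPKM), with a gap of 0.946 of the whole range. This gap and those that follow are on the log2(FPKM + 1) scale. In S100a10 the same library was lowest of Gr-1+ (202.6 FPKM, gap of 0.833 of the range), and null Gr-1- was lowest of Gr-1- (34 FPKM, gap of 0.731). S100a1 was highest of Gr-1- in the CD19Cre library (40.35 FPKM, gap of 0.715). These are 4 of 16 groups examined, of which chance marks about 5%.

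S100a6 values were ordered differently by genotype in the subsets, without a call in any genotype test. In Gr-1+ the 3 libraries labelled deleted (906.1 to 1138 FPKM) were above the intact one (523.5 FPKM), and in Gr-1- the 2 deleted libraries (271.1 and 281.8 FPKM) were below both intact ones (284.1 and 326.8 FPKM). The difference between the subsets was 1.12 on the log2 scale and was not called by the interaction test (limma adjusted p = 0.882).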

How the results depend on the processing

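Against 1544 genes called between the subsets, library weights gave 2376 and a genotype block 2712. By genotype 0 genes were called, against 673 with library weights, 5 without both CD19Cre libraries, 12 in Gr-1- libraries alone and 0 to 2551 with each library left out in turn. Members called by genotype numbered 0, against 1 with library weights (S100a4, 3.20, adjusted p = 0.0418) and 0 to 3 with a library left out, and for the interaction 0 to 1. Of 144 single-member subset values under the alternatives 0 reversed, 5 lost the call (all S100a11) and 7 gained it (S100a4 and S100a13). Of 144 genotype values 18 reversed, all of members with a fitted difference of 0.34 or less. S100a9 was at -0.083 with a pseudocount of 0.1, -0.61 without both CD19Cre libraries, -0.30 in Gr-1- alone and -0.34 to 0.56 with a library left out. S100a8 was at -0.08 with library weights, -0.14 with CD11cCre counted as deleted and -0.23 to 0.15 with a library left out. S100a6 was at -0.04 without both CD19Cre libraries, -0.14 in Gr-1- alone and -0.14 to 0.50 with a library left out. S100a10 was at -0.51, -0.42 and -0.42 to 0.63 under the same settings. With a library left out, the interaction ran from -0.90 to 0.049 for S100a8, -0.58 to 0.78 for S100a1, -0.30 to 0.41 for S100a13 and -0.18 to 1.72 for S100a9. The cause was not tested. Scaling to the same sum moved genotype differences by a median of 0.11.

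Pairing by replicate number was not possible because the groups share fewer than 2 replicate numbers in the labels. The genotype labels that both subsets share served as a block instead, with the counts above. The interaction could not be fitted without CD19Cre Gr-1+, and the unmoderated fits have no form without trend. Each genotype has 1 or 2 libraries per subset, and Gr-1+ has 1 intact library, so where a library is left out a lone library is taken to vary like the others. Depth is unknown, so the counting error of values of a few FPKM, as for S100a9 in Gr-1-, cannot be given.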
